A study of Mus musculus with 31 samples.

Results

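The genes described here encode the proteins of the cytosolic ribosome, followed in mouse embryonic fibroblasts (MEFs, primary connective tissue cells) after retroviral delivery of reprogramming factors. Members were the genes whose symbol has the form of a large subunit (Rpl) or small subunit (Rps) protein, with the stalk genes Rplp0, Rplp1 and Rplp2 and with Rpsa; S6 kinase genes were left out. Of 19938 genes with a row of their own on the array, 61 met this rule, of which 38 belong to the large (60S) and 23 to the small (40S) subunit. A total of 54 are standard subunits, and 7 are paralogs or like genes (Rpl3l, Rpl7l1, Rpl10l, Rpl32l, Rpl39l, Rps4l and Rps27l). A further 17 subunit symbols occurred only in rows shared with another gene and are not members.

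Cells were infected on day 0 with viruses for Oct4, Sox2, Klf4 and c-Myc (labelled 4F), for Oct4, Sox2 and Klf4 (labelled 3F) or for GFP, the control virus. Oct4 is the product of Pou5f1. Uninfected cells gave 2 arrays, which are titled as day 0 of the 4F course. The 4F course had 2 arrays a day on days 1, 2, 3, 4, 5, 6 and 8 and 1 array on each of days 10 and 12. The GFP course had 2 arrays a day on days 1, 3, 5 and 8 and 1 on day 12, and the 3F course had 1 array on each of days 3, 5, 8 and 12. Replicate 1 (12 arrays) was labelled from 120 ng of total RNA, and replicate 2 (12 arrays) and the 7 arrays that carry no replicate number were labelled from 300 ng. All 3F arrays are among those 7, so that only day 12 compares 4F, 3F and GFP arrays of one kind. One label field of the 3F arrays counts 4 factors while listing Oct4, Sox2 and Klf4; their titles and descriptions read 3F. Sources used here give neither the share of cells infected nor the mouse strain.

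Each ribosome holds 1 copy of most of these proteins, and their genes are transcribed at high and similar rates in growing cells. Their mRNAs start with a tract of pyrimidines (the TOP motif) through which translation responds to growth signals. The factor c-Myc is known to act on genes of ribosome synthesis, including many ribosomal protein genes. The pair of 4F and 3F arms compares these mRNAs with and without the c-Myc virus, and not with and without Myc. Each array was labelled from a set mass of total RNA from whole cultures (120 or 300 ng), so fewer cells of a type and less RNA per cell cannot be told apart.

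Array signals of the delivered factors did not all follow the labels. Pou5f1 signals were 6.05 to 9.93 (log2) on the 16 4F arrays, 6.30 to 10.2 on the 4 3F arrays and 5.22 to 5.6 on the 9 GFP arrays, and Sox2 was likewise above all GFP arrays on every 4F and 3F array. Klf4 was 6.65 to 7.61 in 4F, 7.55 to 8.49 in 3F and 7.67 to 8.15 in GFP. Myc was lower in 4F (6.37 to 8.50, median 7.14) than in 3F (7.95 to 9.37, median 8.65), with 6.58 to 9.72 in GFP and 9.58 to 9.70 in uninfected cells. No source used here says which part of these transcripts the probes read, so the Myc signal does not check the labels, and every direction below is between arrays labelled 4F, 3F and GFP. Fibroblast markers (10 genes) averaged 10.2 to 10.4 per array in uninfected cells, whereas the endothelial list (5 genes) averaged 5.21 to 5.78 over all arrays and the macrophage list (5 of 6 genes measured) 5.40 to 6.53. Epithelial (5 genes) and pluripotency (7 genes) markers reached array means of 9.93 and 8.38 in 4F and of 9.23 and 8.24 in 3F.

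Ribosomal protein genes were among the brightest on the arrays. The mean log2 signal over 31 arrays was at least 11 for 37 members, between 9 and 11 for 12 and below 9 for 12, with a median over members of 11.5 against 6.37 over all genes, and 36 members lay above the 99th percentile of genes. Rplp0 and Rpl10 stood at 13.1 and Rps2 at 13.0. The paralogs Rpl3l (5.15), Rpl39l (5.89) and Rpl10l (6.06), known from muscle and testis, were at the low end. Among the standard subunits 7 were also below 9, including Rplp2 (6.07), Rpl34 (7.0), Rpl12 (7.60) and Rpl14 (8.58). Levels of different genes come from different probes and are no measure of their relative mRNA amounts.

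Promoter sequence was available from RefSeq (GRCm38.p6) for 49 of the 61 members, in 58 windows that run from 250 bases before to 50 bases after the annotated start. The 4 windows printed here, each from 240 bases before to 30 after the start and written 5′ to 3′, belong to Rpl14, Rps3a1 and Rps28, which are among the members furthest apart between 4F and 3F, and to Rpl19, whose window holds 2 of the searched motifs. Capitals mark CACGTG (the E box that Myc and its partner Max are known to bind), CCGGAAG or its reverse complement (a core bound by ETS family factors), and CTCGCGAG.
Rpl14 (chr9:120571277-120571546, plus strand): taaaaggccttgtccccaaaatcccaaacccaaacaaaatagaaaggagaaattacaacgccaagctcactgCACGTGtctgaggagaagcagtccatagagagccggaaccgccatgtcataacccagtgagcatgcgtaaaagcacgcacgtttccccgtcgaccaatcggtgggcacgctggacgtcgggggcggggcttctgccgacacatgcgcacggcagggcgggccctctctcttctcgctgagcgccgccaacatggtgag
Rps3a1 (chr3:86142639-86142908, minus strand): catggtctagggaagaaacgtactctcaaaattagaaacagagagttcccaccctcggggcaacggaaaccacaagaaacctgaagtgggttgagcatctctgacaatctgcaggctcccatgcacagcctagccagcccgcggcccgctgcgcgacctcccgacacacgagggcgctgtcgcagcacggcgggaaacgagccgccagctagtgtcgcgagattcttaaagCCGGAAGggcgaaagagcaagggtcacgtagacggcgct
Rps28 (chr17:33824533-33824802, minus strand): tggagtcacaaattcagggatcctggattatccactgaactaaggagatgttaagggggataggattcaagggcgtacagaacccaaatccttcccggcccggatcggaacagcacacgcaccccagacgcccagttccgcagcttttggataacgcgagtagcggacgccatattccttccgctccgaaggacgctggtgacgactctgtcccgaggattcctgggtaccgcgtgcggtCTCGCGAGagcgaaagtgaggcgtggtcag
Rpl19 (chr11:98026470-98026739, plus strand): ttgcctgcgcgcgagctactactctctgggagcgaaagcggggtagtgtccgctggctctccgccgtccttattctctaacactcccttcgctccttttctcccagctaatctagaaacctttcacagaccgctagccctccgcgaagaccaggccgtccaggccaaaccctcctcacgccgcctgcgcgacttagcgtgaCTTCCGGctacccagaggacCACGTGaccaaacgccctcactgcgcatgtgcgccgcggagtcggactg
On either strand, CACGTG was found in 7 of the 58 member windows (12.1%) against 7.15% of 32851 windows of all genes, CCGGAAG in 20 (34.5%) against 8.86%, and CTCGCGAG in 8 (13.8%) against 0.919%. The sequence TATAAA, searched on the forward strand before the start, was in 1.72% of member windows and in 7.59% of all windows. CTTTC, searched on the forward strand from 20 bases before to 30 after the annotated start, was in 15 member windows (25.9%) against 6.57%. Members with CACGTG were Rpl14, Rpl19, Rpl23, Rpl34 and Rps19, and their differences between 4F and 3F below run from 0.12 for Rpl23 to 0.78 for Rpl14. A match describes the letters in a window and not a bound site.

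**Figure D1:**
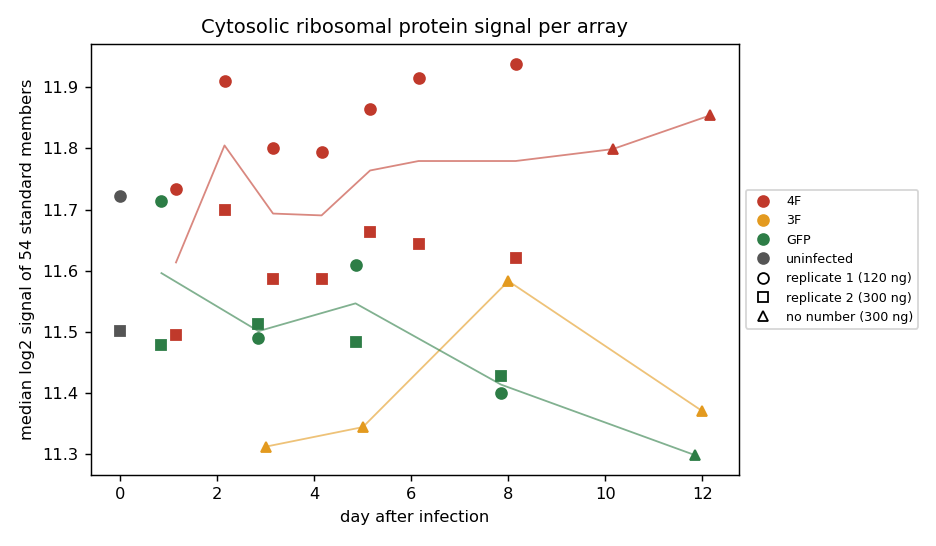
Median log2 signal of the 54 standard members on each array (y axis) by day after infection (x axis); colour gives the arm, the marker shape the set of arrays, and lines join the means of each day. The 4F arrays span 11.5 to 11.9 and the 3F arrays 11.3 to 11.6, and in both 4F and uninfected cells replicate 1 lies above replicate 2.

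The median signal of the 54 standard subunits was 11.49 to 11.94 over the 16 4F arrays (median 11.76), 11.31 to 11.58 over the 4 3F arrays (median 11.36) and 11.30 to 11.71 over the 9 GFP arrays (median 11.48). The 2 uninfected arrays were at 11.50 and 11.72. Arms overlapped in this summary, and replicate 1 lay above replicate 2 on every 4F day that had both, as the plot of array medians shows.

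Members were higher in 4F than in 3F, by a small amount spread over most of the family. Over days 3, 5, 8 and 12 (7 4F and 4 3F arrays, additive limma model of arm and day), the log2 difference was above 0 for 57 of 61 members, with a median of 0.30 against 0.007 over all genes. With an adjusted p under 0.05 (Benjamini-Hochberg over all genes), 25 members were higher and 0 lower. That is 41.0% of the members, where 9.63% of all genes were called in either direction and 3.87% were called higher. These calls rest on the fit of all arrays: with the set of arrays as a replicate block limma called 0 members (16 at an unadjusted p under 0.05) and 0.0702% of all genes, and on the 300 ng arrays alone it called 1 member, Rplp0, and 0.667% of all genes. All 7 4F arrays lay above all 4 3F arrays in 22 members (36.1%), against 2.53% of all genes, and 0 members lay wholly below. The 4F value exceeded the 3F value on all 4 days in 44 members (72.1%), against 12.7% of all genes. By day the median difference over members was 0.31, 0.33, 0.23 and 0.32 on days 3, 5, 8 and 12 (SD over days 0.045).

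The widest gap was in Rpl14, a large subunit protein. Its log2 signal was 8.50 to 9.34 over the 7 4F arrays (median 8.81), 7.90, 8.15, 7.96 and 8.28 in 3F on days 3, 5, 8 and 12, and 7.85 to 8.86 over the 7 GFP arrays (median 8.35). No 3F array reached the lowest 4F array, while GFP overlapped both. The difference of 4F minus 3F was 0.78 ± 0.19 (SE, limma adjusted p = 0.02).

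Rps3a1, a protein of the small subunit surface, read 10.95 to 11.35 in 4F (median 11.08), 10.45, 10.78, 10.20 and 10.63 in 3F and 10.21 to 10.97 in GFP (median 10.73). All 4F arrays were above all 3F arrays, by 0.64 ± 0.13 on the additive fit (adjusted p = 0.0093). Rps13, also of the small subunit, was 9.59 to 10.36 in 4F (median 9.83), 9.13, 9.33, 9.44 and 9.18 in 3F and 8.93 to 9.46 in GFP (median 9.35). Here the 4F arrays cleared both other arms, and 4F exceeded 3F by 0.63 ± 0.15 (adjusted p = 0.018). Rpl12, a large subunit protein near the stalk base, differed by 0.72 ± 0.23 but was not called (adjusted p = 0.063): its 4F arrays ran from 6.60 to 8.50 and overlapped the 3F arrays at 6.42 to 7.17.

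All 3 stalk proteins, which recruit the elongation factors, were called. Rplp0, at the stalk base, was 13.05 to 13.22 over the 4F arrays (median 13.15), 12.87, 12.92, 12.88 and 12.69 in 3F and 12.94 to 13.08 in GFP (median 13.01). The 3F arrays lay below all arrays of both other arms, and the 4F minus 3F difference was 0.30 ± 0.039 (adjusted p = 0.0013). Its size depended on the row used, since the 2 rows of Rplp0 gave 4F minus 3F differences of 0.15 and 0.30. Rplp1 (0.19 ± 0.054, adjusted p = 0.042) and Rplp2 (0.37 ± 0.097, adjusted p = 0.029) were also higher in 4F. On the 300 ng arrays Rplp0 kept its call (0.29, adjusted p = 0.047), Rplp1 and Rplp2 lost theirs, and no stalk gene was called with the set as a block. Rplp0 and Rplp1 were the 2 members called between 3F and GFP.

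By role, Rpl5, which carries the 5S RNA into the large subunit, was higher by 0.34 ± 0.080 (adjusted p = 0.018). A list for decoding and mRNA entry held 7 measured small subunit proteins, not all of which lie at those sites. Of these, Rps3 (0.50 ± 0.090, adjusted p = 0.0053) and Rps28 (0.58 ± 0.12, adjusted p = 0.01) were called by limma. Rps2, Rps6, Rps14, Rps19 and Rpsa had differences of 0.18, 0.078, 0.27, 0.61 and 0.23 and were not called. Of 3 measured proteins at the nascent chain exit side, Rpl22 was called (0.55 ± 0.13, adjusted p = 0.016), with 0.21 for Rpl4 and 0.11 for Rpl23a. Of the standard subunits, 15 of 33 in the 60S and 10 of 21 in the 40S were higher, with median differences of 0.30 and 0.42. The 6 measured paralogs of standard subunits held 0 calls, with a median of 0.043. The 4 lowest differences were in Rpl39l (-0.23 ± 0.11, adjusted p = 0.23), Rps4l (-0.14 ± 0.12, adjusted p = 0.58), the standard subunit Rpl21 (-0.049 ± 0.071, adjusted p = 0.79) and Rpl3l (0.0 ± 0.043, adjusted p = 1.0).

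**Figure D2:**
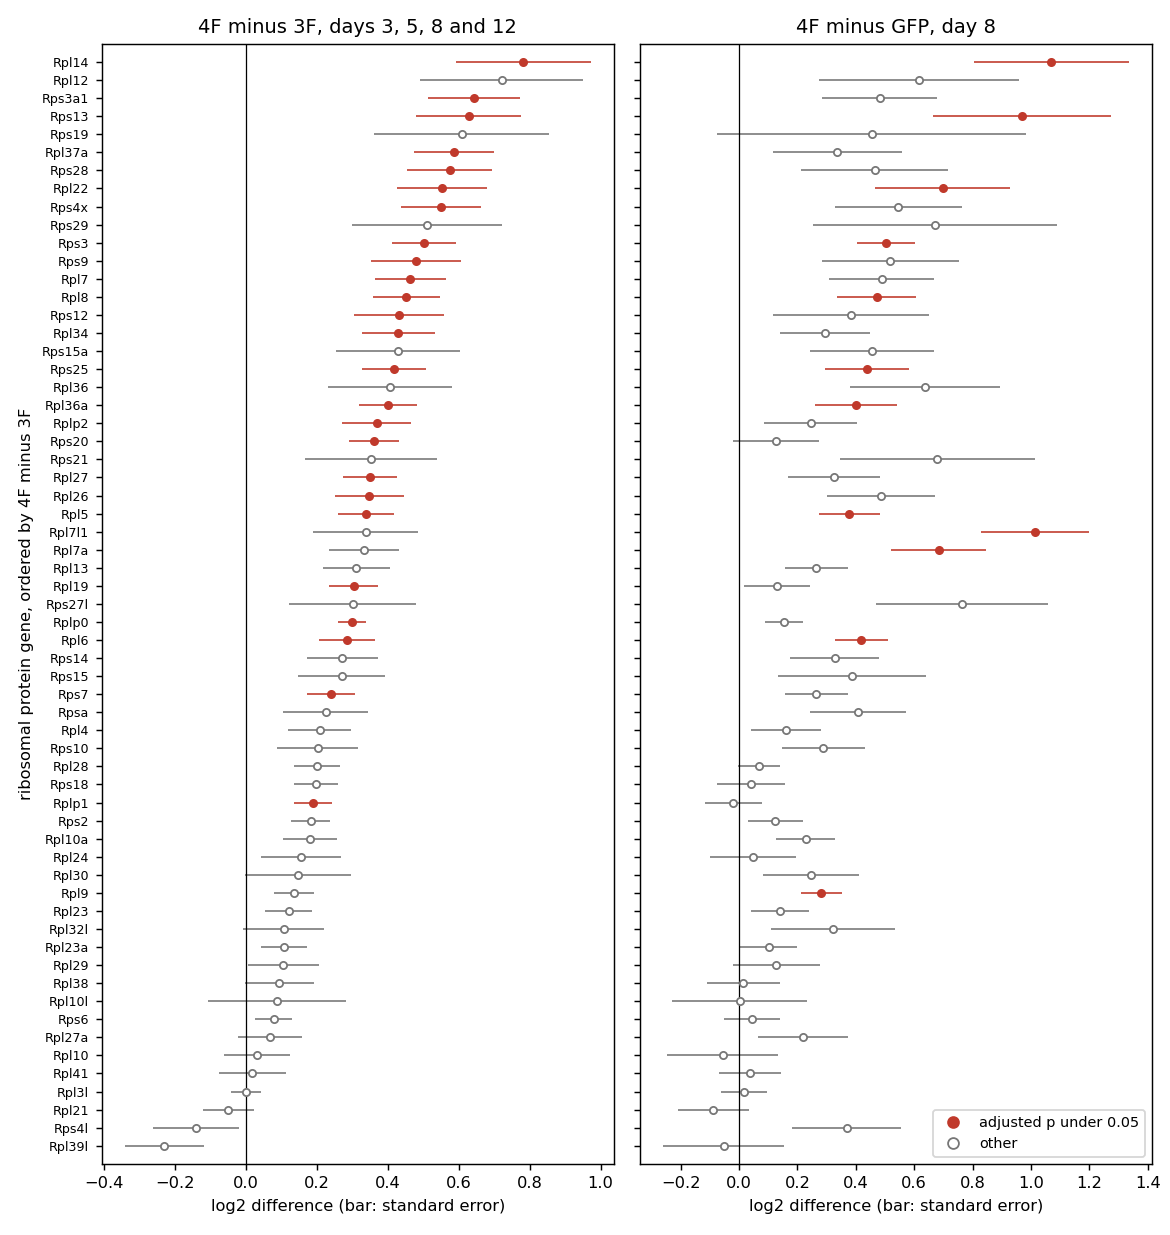
Log2 difference of each of the 61 members (points, bars are standard errors) between 4F and 3F over 4 days (left) and between 4F and GFP on day 8 (right), ordered by the left panel; filled points have a limma adjusted p under 0.05. Filled points, 25 on the left and 12 on the right, all lie right of 0.

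Among the standard subunits, the brightest class had the smallest median difference. The 18 with a mean log2 signal of 12 or more had a median 4F minus 3F difference of 0.19, the 19 between 11 and 12 one of 0.36, the 10 between 9 and 11 one of 0.56 and the 7 below 9 one of 0.43. The 4 classes held 6, 9, 6 and 4 called members. Whether the brightest probes were near the top of their range was not tested.

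Replicate 1 and replicate 2 also differed in many of these genes. Over the 12 groups with both replicates, replicate 1 (120 ng) exceeded replicate 2 (300 ng) in every group for 12 members and lay below it in every group for 5, as 2.8% and 3.37% of all genes did. By more than 0.3 on average, 12 members were higher in replicate 1, against 2.49% of all genes, and 1 (Rps27l, -0.37) was lower, against 4.61%. Rps19 shifted by 0.81 ± 0.18 (SD over 12 groups), Rps29 by 0.60 ± 0.26, Rpl12 by 0.48 ± 0.25, Rps21 by 0.45 ± 0.27, Rps13 by 0.38 ± 0.28 and Rpl14 by 0.36 ± 0.21, whereas Rps3a1 and Rplp0 shifted by 0.019 and 0.026. Since 3F has no 120 ng array, this shift enters the comparison with 3F. Labelled mass and replicate cannot be told apart.

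On the 300 ng arrays alone (4 of 4F, 4 of 3F), the median difference was 0.25 and 57 of 61 members stayed above 0, as did all 25 members called with all arrays (0.15 to 0.58). All 4F arrays then lay above all 3F arrays in 24 members (39.3%), against 4.27% of all genes. In that fit 38 members had an unadjusted p under 0.05. With the set as a replicate block, which leaves 3F to be compared through day 12, the median was 0.28. On day 12, where the 3 arms have 1 array each without a number, 4F exceeded 3F in 55 members with a median of 0.32. Leaving out day 3, 5 or 8 left 8, 1 and 5 called members, with medians of 0.30, 0.27 and 0.29. Without day 12 there were 27, with a median of 0.30. The shares of all genes called in these fits are not given here, so a loss of calls particular to the members cannot be told from a general one.

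**Figure D3:**
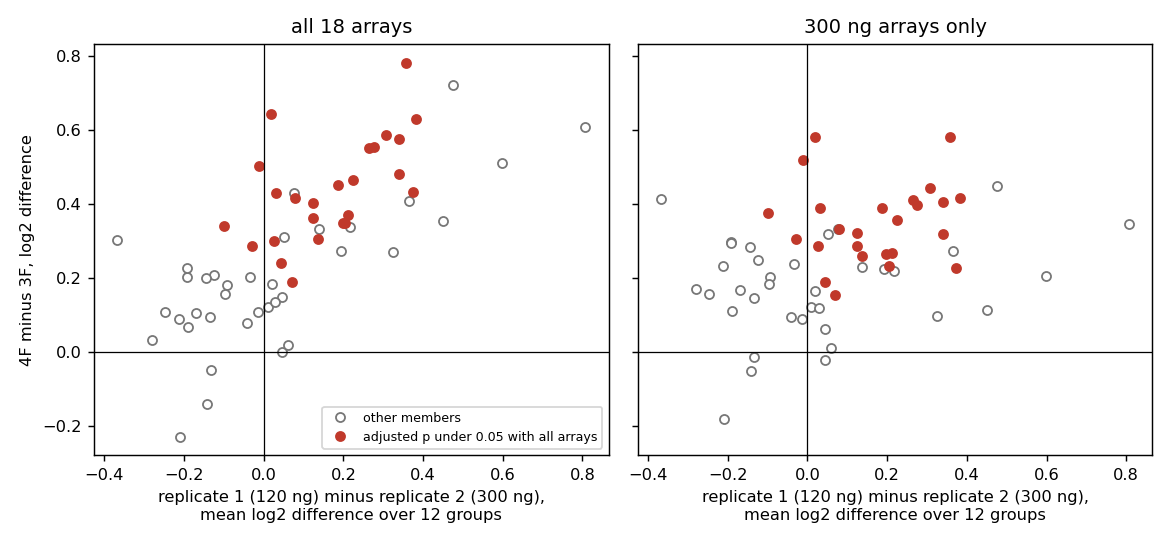
Difference of 4F minus 3F (y axis, log2) of each of the 61 members against its shift between replicate 1 and replicate 2 averaged over 12 groups (x axis, log2), with all 18 arrays (left) and with 300 ng arrays alone (right); filled points were called with all arrays. Rps19, shifted by 0.81, falls from 0.61 on the left to 0.35 on the right, whereas Rps3a1, shifted by 0.019, stays at 0.64 and 0.58.

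Between 3F and GFP the family was near level. The median difference was -0.005 over the 4 days, with 27 of 61 members above 0, and 0 members were higher and 2 lower (3.28%), where 18.3% of all genes were called. The 2 were Rplp0 (-0.16 ± 0.039, adjusted p = 0.011) and Rplp1 (-0.17 ± 0.054, adjusted p = 0.038); both calls were lost on leaving out day 5, 8 or 12. Without day 3 Rplp1 lost its call, Rplp0 stayed lower (-0.18, adjusted p = 0.037) and Rps4l was called higher (0.32, adjusted p = 0.045). By day the median was -0.14, -0.10, 0.087 and 0.086 on days 3, 5, 8 and 12. The lowest members besides were Rpl37a (-0.31 ± 0.11, adjusted p = 0.075), Rps9 (-0.25), Rpl14 (-0.21) and Rpl34 (-0.20), and the highest Rpl7l1 (0.34 ± 0.15, adjusted p = 0.13), Rps4l (0.32), Rpl10l (0.22) and Rpl7a (0.19), none of them called. With the set as a block neither was called and 1 other member was, Rpl7l1, higher in 3F (0.90, adjusted p = 0.023), against 13.9% of all genes. The 3F arrays enter both this comparison and that with 4F.

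Against GFP, 0 members were called on day 1 and 12 on day 8, all higher in 4F. On day 1 limma called 0 members (0 at an unadjusted p under 0.05), where 1.81% of all genes were called, and the median difference was 0.014 with 32 of 61 above 0. The highest, Rpl12 (0.34), Rpl7l1 (0.33), Rpl30 (0.30) and Rpl29 (0.21), and the lowest, Rps4x (-0.15), Rpl22 (-0.13), Rpl28 (-0.12) and Rpsa (-0.087), had adjusted p values from 0.51 to 0.94. On day 3 the median was 0.18, and 3 members (4.92%) were higher, against 11.9% of all genes called: Rpl30, Rpl5 and Rps3. On day 5 it was 0.20, and 4 (6.56%) were higher against 21.4%: Rpl12, Rpl7a, Rpl7l1 and Rps15a. On day 8 it was 0.33, with 57 of 61 above 0, and 12 members were higher and 0 lower (19.7%), where 27.6% of all genes were called and 14.5% were called higher.

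These counts rose when the replicate number, which marks the labelled mass, entered as a block: 9 members on day 3 against 18.8% of all genes, 15 on day 5 against 28.2% and 31 on day 8 (50.8%) against 34.2%. Set against all genes called in either direction, the share of members lay below on days 3 and 5 in both fits. On day 8 it lay below without the block and above with it. All member calls were higher, however. Without the block, 1252 and 2098 of 19938 genes were called higher on days 3 and 5. The share of all genes called higher in the blocked fits is not given here, so a comparison by direction is open for them. Single arrays mattered as well. Day 3 gave 1 call without GFP replicate 1, 7 without GFP replicate 2 and 0 without either 4F array. Day 5 gave 1 without GFP replicate 2 and 0 without 4F replicate 1. Day 8 gave 6 without GFP replicate 1 and 4 without 4F replicate 1.

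On day 8 the highest were Rpl14, Rpl7l1, Rps13 and Rps27l. Rpl14 read 9.34 and 8.81 in 4F and 7.93 and 8.08 in GFP, a difference of 1.07 ± 0.27 (adjusted p = 0.0065). Rpl7l1, a nucleolar relative of Rpl7, read 10.25 and 9.99 against 9.18 and 9.03 (1.01 ± 0.18, adjusted p = 0.00061), and Rps13 read 10.36 and 9.66 against 8.93 and 9.15 (0.97 ± 0.30, adjusted p = 0.026). In these 3 genes both 4F arrays were above both GFP arrays. Rps27l, a target of p53, differed by 0.76 ± 0.30 and was not called (adjusted p = 0.07). The other called members were Rpl22 (0.70), Rpl7a (0.68), Rps3 (0.50), Rpl8 (0.47), Rps25 (0.44), Rpl6 (0.42), Rpl36a (0.40), Rpl5 (0.38) and Rpl9 (0.28). The lowest were Rpl21 (-0.088 ± 0.12), Rpl10 (-0.056), Rpl39l (-0.052) and Rplp1 (-0.019), with adjusted p from 0.68 to 0.93.

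Averaged over days 1, 3, 5 and 8, the median was 0.19 and 21 members (34.4%) were higher and 0 lower, where 37.4% of all genes were called and 18.8% were called higher; with the replicate block there were 40 (65.6%) against 43.5%. Rpl7l1 (0.62 ± 0.092, adjusted p = 6e-05), Rpl12 (0.53 ± 0.17, adjusted p = 0.023), Rps13 (0.51 ± 0.15, adjusted p = 0.015) and Rpl14 (0.42 ± 0.13, adjusted p = 0.021) led, and Rpl39l (-0.036), Rpl10 (-0.029), Rps18 (-0.015) and Rpl3l (-0.010) were lowest, with adjusted p from 0.82 to 0.88. In 8 members (13.1%) 4F was above GFP in all 8 pairs of the same day and set, against 12.7% of all genes. On the additive fit of days 3, 5, 8 and 12, without a block, 39 members (63.9%) were higher in 4F than in GFP and 0 lower. Their median difference over all 61 members was 0.27, with 60 above 0. Of all 19938 genes, that fit called 3623 higher and 3549 lower. Other fits of this contrast were not run. Whether its 39 calls depend on the set of arrays or on single days was thus not tested. Between 4F and 3F, the same model called 25 members, and 0 with the set as a block. The day 8 difference exceeded that of day 1 by a median of 0.29, with 0 members called (12 at an unadjusted p under 0.05), where 8.49% of all genes were called; the blocked fit called 11 against 14.1%, and leaving out replicate 2 of GFP or of 4F on day 8 gave 2 and 1.

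Within each set of arrays, 4F lay above and GFP below uninfected cells by day 8, by unequal amounts. In replicate 1 the median difference of 4F minus GFP was 0.022, 0.35, 0.24 and 0.42 on days 1, 3, 5 and 8, and in replicate 2 it was -0.010, 0.091, 0.13 and 0.18. On day 12, with 1 array each, it was 0.41 and 59 of 61 members were above 0. From uninfected cells to day 8, the 4F median moved by 0.13 and 0.12 in the 2 replicates, whereas the GFP median moved by -0.33 in replicate 1 and -0.049 in replicate 2, and by -0.26 on the day 12 array.

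**Figure D4:**
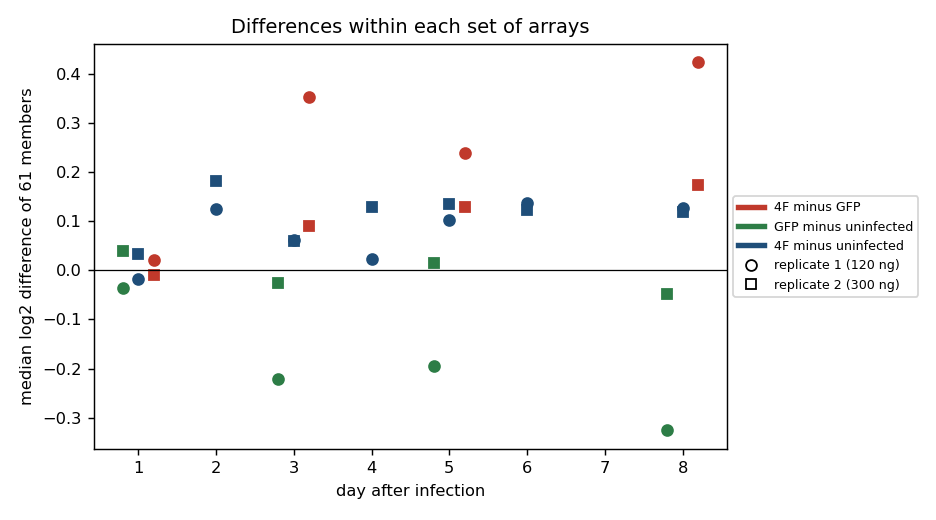
Median log2 difference over the 61 members (y axis) within each set of arrays by day after infection (x axis), for 4F minus GFP, GFP minus uninfected and 4F minus uninfected; circles are replicate 1 and squares replicate 2. By day 8 the 4F points stand at 0.13 and 0.12 above uninfected cells, and the GFP points at -0.33 and -0.049.

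Few members were called against uninfected cells. In 4F the median was 0.009, 0.15, 0.067, 0.078, 0.13, 0.13 and 0.11 on days 1, 2, 3, 4, 5, 6 and 8. Leaving out 1 array moved these medians to between -0.037 and 0.107 on day 1, 0.090 and 0.216 on day 2, 0.004 and 0.149 on day 3, -0.002 and 0.147 on day 4, 0.031 and 0.183 on day 5, 0.047 and 0.203 on day 6, and 0.040 and 0.162 on day 8. The lowest value came without uninfected replicate 2 on days 1 to 6 and without 4F replicate 1 on day 8, where arrays centred on their medians gave 0.053. The highest came without uninfected replicate 1 on days 1, 2, 4 and 5 and without 4F replicate 2 on days 3, 6 and 8. On day 2, 56 of 61 members were above 0 with all arrays. On days 1, 2, 3, 4 and 5 limma called 0 members (0, 4, 0, 0 and 1 at an unadjusted p under 0.05), where 0.838%, 9.35%, 8.53%, 10.1% and 13.6% of all genes were called. On days 6 and 8, 1 member was called, against 16.1% and 15.9% of all genes: Rpl22, a large subunit protein not needed for translation in general, by 0.73 ± 0.23 (adjusted p = 0.046) and 0.81 ± 0.23 (adjusted p = 0.026). Its signal was 9.01 and 9.24 in uninfected cells and 10.22 and 9.65 in 4F on day 8. Both calls were lost without either uninfected array, without the 4F replicate 1 array of that day, or, on day 6, with arrays centred on their medians. With the replicate block, Rpl22 and Rpl37a were higher on days 2 and 5, against 14.4% and 19.6% of all genes called. On day 3 Rpl37a was higher and Rps19 lower, against 13.7%. On day 6 the blocked fit called 7 members, all higher, against 22.3%, and on day 8 it called 5, all higher, against 22.1%: Rpl14, Rpl22, Rpl37a, Rps14 and Rps9.

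In GFP cells the median was 0.013, -0.13, -0.064 and -0.19 on days 1, 3, 5 and 8. Without uninfected replicate 2 these were -0.066, -0.178, -0.116 and -0.279, and without uninfected replicate 1 they were 0.075, -0.049, -0.011 and -0.095. No member was called on days 1 and 3 (0 and 4 at an unadjusted p under 0.05, limma), against 0.0903% and 1.05% of all genes, and Rpl7l1 alone was lower on day 5 (-0.64 ± 0.18, adjusted p = 0.037), against 10.6%. On day 8, 4 members (6.56%) were lower, against 20.1%: Rpl7l1 (-0.95 ± 0.18, adjusted p = 0.0016), Rpl30 (-0.68 ± 0.17, adjusted p = 0.0078), Rpl7a (-0.51 ± 0.16, adjusted p = 0.038) and Rpl6 (-0.31 ± 0.091, adjusted p = 0.024). Without uninfected replicate 1 or GFP replicate 1 the day 8 count was 2, without GFP replicate 2 it was 8, and with the block it was 12 against 26.6% of all genes. On day 5 the block gave 4, all lower, against 17.3%. The day 5 call was lost without either uninfected array or GFP replicate 1, and day 3 gave 1 call without GFP replicate 2.

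Among the 4F days, Rpl30, Rpl12 and Rpl10l had the widest ranges of day means (1.58, 1.53 and 1.18). Rpl30, a large subunit protein, read 8.27 and 8.46 on day 1, 8.58 and 8.62 on day 3, 7.98 and 7.89 on day 8 and 7.18 and 7.02 on days 10 and 12. Rpl12 read 8.09 and 7.92 on day 1, 8.24 and 7.31 on day 8 and 6.99 and 6.60 on days 10 and 12. In both genes the low arrays were the late ones without a number, and GFP on day 12 was low too (7.31 for Rpl30 and 6.53 for Rpl12).

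**Figure D5:**
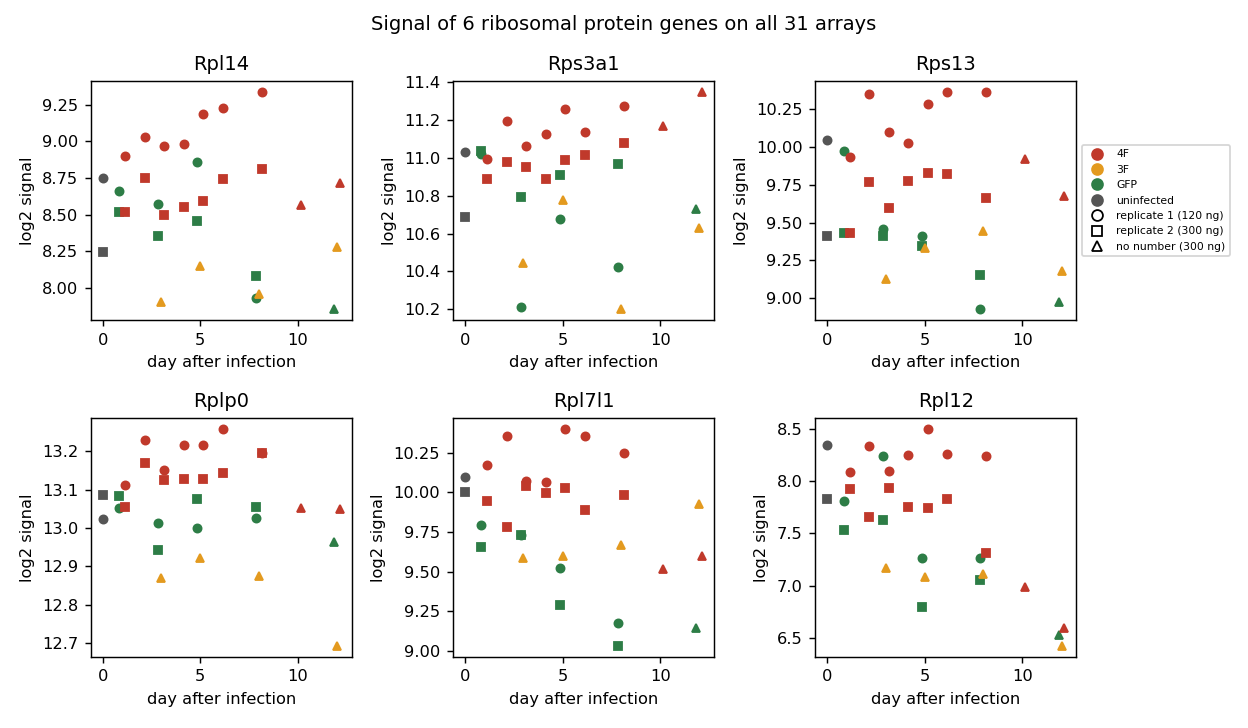
Log2 signal (y axis) of Rpl14, Rps3a1, Rps13, Rplp0, Rpl7l1 and Rpl12 on each of the 31 arrays by day after infection (x axis), with arms by colour and sets of arrays by marker. In the first 4 genes the 3F arrays of days 3, 5, 8 and 12 lie below all 4F arrays of those days, and in Rpl12 the 4F, 3F and GFP arrays of day 12 lie between 6.42 and 6.60.

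Other genes of the translation machinery had larger median differences from GFP on day 8. Of 65 measured genes of ribosome assembly and RNA polymerase I, 57 were higher and 0 lower in 4F than in GFP on day 8, with a median of 0.95; 30 were already higher on day 1 (median 0.68). Of all genes, 27.6% and 1.81% were called on these days. Dkc1, the pseudouridine synthase of small nucleolar particles, led (2.40 ± 0.12, adjusted p = 1.9e-08) and Sbds was lowest (-0.30 ± 0.22, adjusted p = 0.38). Against uninfected cells on day 8 this list had a median of -0.055 in 4F, with 2 higher and 7 lower, against 15.9% of all genes called. In GFP its median was -1.06, with 0 higher and 59 lower, against 20.1%. Between 4F and 3F, 23 of the 65 were higher and 0 lower (median 0.51), against 9.63% of all genes called. On the 300 ng arrays 0 of the 65 were called and the median was 0.47, whereas with the set as a block 0 were called and the median was -0.25, so that the direction of this list against 3F depended on the fit.

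Of 35 measured initiation factors, 21 were higher and 0 lower on day 8 (median 0.58), from Eif3i (0.91 ± 0.30, adjusted p = 0.035) to Eif4a2 (-0.41 ± 0.19, adjusted p = 0.14), and 8 were higher in 4F than in 3F (median 0.22, and -0.13 with the set as a block). Of 13 measured elongation factors and other genes with TOP mRNAs, 6 were higher and 1 lower on day 8 (median 0.52, 9 above 0). They ran from the nucleolar chaperone Npm1 (0.97 ± 0.19, limma adjusted p = 0.0014) to Vim (-0.34 ± 0.12, adjusted p = 0.055). Members of this list differed in direction. Tpt1 was the gene called lower (-0.24 ± 0.084, limma adjusted p = 0.042). Eef1a1 (-0.026), Eef2 (0.012) and Pabpc1 (-0.14) were not called, whereas Eef1b2 (0.52) and Eef1d (0.93) were called higher. Against 3F, 2 genes of the list were higher in 4F (median 0.34, and 0.052 with the set as a block). Fau, whose product includes the small subunit protein eS30, was the only 1 of 4 further subunit genes measured and was higher by 0.45 ± 0.12 (adjusted p = 0.0095) on day 8 and by 0.33 ± 0.096 (adjusted p = 0.044) against 3F. Of all genes, 27.6% were called between 4F and GFP on day 8 and 9.63% between 4F and 3F. None of the calls against 3F in these lists held on the 300 ng arrays or with the set as a block.

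Cell type markers moved in the same comparisons. On day 8, 9 of 10 fibroblast markers were lower in 4F than in GFP (median -2.43), from Lum (-4.52) to Vim, and the list's array means were 9.41 to 10.5 in 4F, 10.5 to 11.1 in 3F and 10.5 to 12.2 in GFP. Against uninfected cells on day 8, the list rose in GFP (median 1.06, 6 higher and 1 lower), where 20.1% of all genes were called. In 4F its median was -0.81 (5 lower and 1 higher), against 15.9%. Lum read 5.72 to 5.82 in uninfected cells and 6.46 to 9.62 over the 4F arrays. Of the epithelial markers 4 of 5 were higher in 4F than in GFP on day 8 (median 1.43), from Krt18 (0.61) to Epcam (2.76). Of the pluripotency markers 5 of 7 were (median 1.40), from Dppa3 (0.17) to Tdgf1 (3.68). Of 5 macrophage markers, 2 were lower, from Lyz2 (-1.87) to Cd68 (1.00), and of 5 endothelial markers 0, from Kdr (-0.25) to Pecam1 (0.015). Of all genes, 27.6% were called between 4F and GFP on day 8. Between 4F and 3F, 8 of 10 fibroblast markers were lower, and 0 of the epithelial and 0 of the pluripotency markers were called by limma, where 9.63% of all genes were called. On the 300 ng arrays 1 fibroblast marker was called, against 0.667% of all genes. With the set as a block 0 were, against 0.0702%, and the fibroblast medians in these 2 fits were -1.01 and -0.57. The part of these changes in the ribosomal protein differences was not tested.

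Probe choice mattered little for the direction. Members had 217 rows in all, of which 213 were higher in 4F than in 3F and 200 higher in 4F than in GFP on day 8. Of the 39 members with several rows, 37 were higher in 4F than in 3F in every row. The size depended more on the row: Rpsa ran from 0.25 to 0.70 over 5 rows and Rps14 from 0.30 to 0.62 over 2. With the mean of all rows, all 25 members called against 3F kept their call. Rows of one gene can share probes, and ribosomal protein genes have many processed pseudogenes. The values of single members are thus uncertain to the extent that probes read a copy elsewhere.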

How the data were processed

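Values are log2 signals of Affymetrix whole transcript arrays as deposited by the authors, from biotin-labelled total RNA per the labels' protocols; their normalization and background correction are not given in the sources used here, and depth has no counterpart on arrays, where the number of arrays limits precision. No array was dropped or imputed. Of 28853 rows, 21789 had 1 gene symbol in the platform annotation, 1621 several and 5443 none; the row of highest mean over 31 arrays stood for a gene. Group means (31 arrays, 19 groups) and an additive model of arm and day (18 arrays, the 3F days standing in for replicates) were fitted with limma 3.58.1 in R 4.3.3, tested on simulated data, with Benjamini-Hochberg adjustment over 19938 genes and a threshold of 0.05. P-values measure the spread between these arrays.

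Members and gene lists were chosen with earlier results of these data known. Named genes are the 4 highest and 4 lowest members in 5 comparisons, the 3 with the widest range of 4F day means and members with a listed role. They also include the highest and lowest gene of each other list on day 8, and the delivered factors. Further members, and further genes of the elongation list, are named where calls are spelled out. Replicate numbers were taken to pair the arrays, since the labels tie a number to the labelled mass. Deviations of same-numbered arrays correlated in 65 of 66 pairs of groups at over 0.1 (0.081 to 0.69, median 0.32). Blocked values therefore stand beside the member results that they change, where that fit was run. Counts of the other gene lists against GFP and uninfected cells are without the block. With it, ribosome assembly genes higher in 4F than in GFP went from 30 to 48 on day 1. On day 8 they went from 57 to 61, initiation factors from 21 to 23 and lower fibroblast markers from 9 to 10, against 34.2% of all genes called. Alternatives were the block, centring, a signal minimum of 6, the mean of rows, another prior, leaving out arrays or days, 300 ng arrays alone and, chosen after seeing the data, leaving out the arrays without a number. Promoter windows came from RefSeq.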

Additional observations from a re-analysis of the deposited data

Results flagged for a closer look

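The 17 subunit symbols found only in rows shared with another gene were not used in any comparison above, and gave a signal of the same sign: averaged over the rows of each symbol, all 17 were higher in 4F than in 3F over the 4 days, with a median log2 difference of 0.22 (0.092 for Rpl15 to 1.19 for Rpl22l1). Against GFP on day 8 all 17 were higher as well, with a median of 0.33. These rows can read the other gene named with them, and the differences were not tested.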

How the results depend on the processing

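The replicate block raised the count from 3 to 9 on day 3, from 4 to 15 on day 5, from 12 to 31 on day 8 and from 21 to 40 over the days of 4F against GFP, from 0 to 11 for day 8 minus day 1, and from 0 to 2 on days 2, 3 and 5, from 1 to 7 on day 6 and from 1 to 5 on day 8 of 4F against uninfected cells; for GFP against uninfected cells it gave 4 on day 5 and 12 on day 8. With the set as replicate block, 4F against 3F fell from 25 to 0 and 3F against GFP went from 2 lower to 1 higher; without the 120 ng arrays they gave 1 and 0. Those fits rest on fewer arrays or on day 12. Centring the arrays gave 4 for 3F against GFP and 0 for 4F against uninfected cells on day 6. A mean signal of at least 6 gave 0 for 3F against GFP, 1 for 4F against uninfected cells on day 2 and 3 for GFP against uninfected cells on day 5. The mean of all rows gave 5 and the eBayes trend 0 on day 3 of 4F against GFP. A fit of 1 mean per group over days 3, 5 and 8 gave 0 for 3F against GFP.

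Leaving out 1 array, or 1 day in the comparisons with 3F, gave 1 to 27 for 4F against 3F, 0 to 2 for 3F against GFP, 0 to 7, 0 to 4 and 4 to 17 for 4F against GFP on days 3, 5 and 8, 16 to 27 over the days, 0 to 2 for day 8 minus day 1, 0 to 1 for 4F against uninfected cells on days 6 and 8, 0 to 1 for GFP against uninfected cells on days 3 and 5 and 2 to 8 on day 8. Values of single called members under these alternatives were counted for 3 comparisons, and 0 turned their direction: 157 of 275 kept their call for 4F against 3F, 96 of 120 for 4F against GFP on day 8 and 428 of 462 for the mean over days.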
